A study of Rattus norvegicus with 16 samples.

Results

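The genes described here mark inhibitory neurons that release GABA, and they were followed in brain samples of adult male Wistar rats that differed in early maternal care and in diet. All 8 were chosen by name as rows of the deposited table, 8 of its 15580 genes, and all 8 passed the filter on low counts that left 14208 genes for testing. They comprise the genes for GABA synthesis and vesicle loading (Gad1, Gad2, Slc32a1), the peptides Sst, Vip and Cck, and the calcium-binding proteins Pvalb and Calb2.

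The 16 RNA sequencing libraries fell into 4 groups of 4. The ELS-HFD group had been taken from the dam for 3 h daily during 16 days that began on postnatal day 1, and was later given a high fat diet, and the ELS group had the same separation with chow. The HFD group had stayed with the dam and received the high fat diet, and the control group had stayed with the dam and received chow. Before the diets were split on postnatal day 60, all 4 groups had been tested in an elevated plus maze, near postnatal day 57. The age at collection, the composition of the diet and the litters are not given in the sources used here, and the labels do not say that each library came from its own animal. P-values therefore rest on the spread among libraries, part of which may be technical. The design text calls the tissue amygdala, the labels call it brain, and each sample was a lysate of whole tissue.

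GABA is made from glutamate by 2 decarboxylases. The product of Gad1, GAD67, supplies much of the GABA of the cell, and that of Gad2, GAD65, is enriched at nerve terminals. The transporter VGAT, encoded by Slc32a1, loads GABA into synaptic vesicles. In the amygdala these genes are used by scattered interneurons of the basolateral nuclei and also by the projection neurons of the central nucleus, as they are by the medium spiny neurons of the neighbouring striatum. The remaining genes label subsets of interneurons. Parvalbumin marks fast-spiking cells that contact the soma, somatostatin marks cells that target dendrites, and VIP and calretinin (Calb2) mark cells that often inhibit other interneurons. Cholecystokinin marks a class of basket cells but is also made by many glutamatergic neurons.

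The start regions of 5 of the genes are shown. Gad1, Gad2 and Slc32a1 moved together in these libraries, and Sst and Vip label subsets of interneurons. RefSeq windows of 300 bases, 250 before to 50 after an annotated start in the GRCr8 build, were found for 6 of the 8 genes. Cck and Calb2 had no entry. The first 3 windows belong to the genes of GABA synthesis and release, and the other 2 to peptide genes. Capitals mark matches on either strand to TGACGTC (the core of the cAMP response element), TATAAA (the TATA box), TAATTA (a homeodomain core) and GGGCGG (the GC box).
Gad1, chr3:75777202-75777501, plus strand: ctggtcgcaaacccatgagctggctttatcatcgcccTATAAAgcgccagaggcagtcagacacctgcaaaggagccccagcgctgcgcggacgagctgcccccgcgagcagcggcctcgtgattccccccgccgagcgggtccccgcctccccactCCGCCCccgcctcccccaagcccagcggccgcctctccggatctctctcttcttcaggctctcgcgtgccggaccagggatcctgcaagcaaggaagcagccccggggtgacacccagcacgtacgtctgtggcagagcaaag
Gad2, chr17:89671468-89671767, plus strand: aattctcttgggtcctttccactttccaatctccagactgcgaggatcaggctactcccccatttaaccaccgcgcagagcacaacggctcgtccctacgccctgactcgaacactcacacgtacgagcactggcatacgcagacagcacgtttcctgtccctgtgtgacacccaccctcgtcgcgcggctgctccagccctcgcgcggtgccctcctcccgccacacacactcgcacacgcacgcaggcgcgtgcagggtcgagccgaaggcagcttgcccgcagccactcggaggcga
Slc32a1, chr3:167686995-167687294, plus strand: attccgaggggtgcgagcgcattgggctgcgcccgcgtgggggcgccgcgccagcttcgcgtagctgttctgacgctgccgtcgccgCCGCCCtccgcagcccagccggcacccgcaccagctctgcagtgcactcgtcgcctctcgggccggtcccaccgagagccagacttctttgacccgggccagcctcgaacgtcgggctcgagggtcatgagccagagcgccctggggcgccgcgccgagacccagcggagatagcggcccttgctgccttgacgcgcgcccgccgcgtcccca
Sst, chr11:90461296-90461595, plus strand: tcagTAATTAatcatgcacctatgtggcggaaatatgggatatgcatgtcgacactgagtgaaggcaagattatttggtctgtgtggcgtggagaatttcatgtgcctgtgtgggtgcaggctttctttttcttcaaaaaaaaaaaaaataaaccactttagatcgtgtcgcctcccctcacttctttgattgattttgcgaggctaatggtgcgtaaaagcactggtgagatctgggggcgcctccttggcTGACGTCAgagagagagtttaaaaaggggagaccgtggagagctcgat
Vip, chr1:44470230-44470529, plus strand: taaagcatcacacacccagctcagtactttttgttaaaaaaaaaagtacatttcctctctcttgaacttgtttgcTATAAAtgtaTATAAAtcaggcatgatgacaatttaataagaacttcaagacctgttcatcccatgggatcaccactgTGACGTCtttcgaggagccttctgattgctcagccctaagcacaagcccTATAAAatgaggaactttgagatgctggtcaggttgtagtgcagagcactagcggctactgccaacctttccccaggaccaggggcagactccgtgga

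The GABA synthesis and release genes had GC-rich windows, with 67.7% G and C in Gad1, 63.7% in Gad2 and 73.7% in Slc32a1, against a median of 51.7% over all 33469 windows. They held 26, 29 and 42 CG dinucleotides, where the median window held 7. The windows of Sst and Vip were poorer, at 45.7% and 44.0% G and C with 11 and 4 CG dinucleotides. That of Pvalb, another class marker whose window is not shown, had 60.7% G and C and 23 CG dinucleotides. TGACGTC was matched in Sst, from base 253 of the window, and in Vip, from base 154, and in 3.22% of all windows. In Sst the match is part of a palindrome, so it was found on both strands in overlapping positions. Matches to the TATA box lay in Gad1 and, at 3 places, in Vip (14.2% of all windows), to the GC box in Gad1, Slc32a1 and Pvalb (33.1%), and to the homeodomain core in Sst (5.36%). A match is a description of these letters and not evidence of a bound factor.

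Libraries held 11438086 to 23629824 counts. Levels are given as CPM, counts put on the scale of equal library sizes using factors from trimmed means of M values (TMM), in the order of replicates 1 to 4. They are not compared between genes, since no lengths entered them. In bulk tissue, fewer cells of a type and less RNA per cell cannot be told apart. Of the libraries, 3 had few choroid plexus transcripts (ELS 1, ELS 2 and ELS-HFD 1), and ELS 3 and ELS 4 had the highest levels of the myelin genes, so log2 folds that turned or moved by over 1.5 times without either set are also given without it. The tissue held transcripts of glutamatergic neurons, with Slc17a7 at 987 to 2025 CPM, of the central amygdala, with Prkcd at 10.3 to 28.3 CPM, and of the striatum, with Adora2a at 2.96 to 133.8 CPM.

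**Figure D1:**
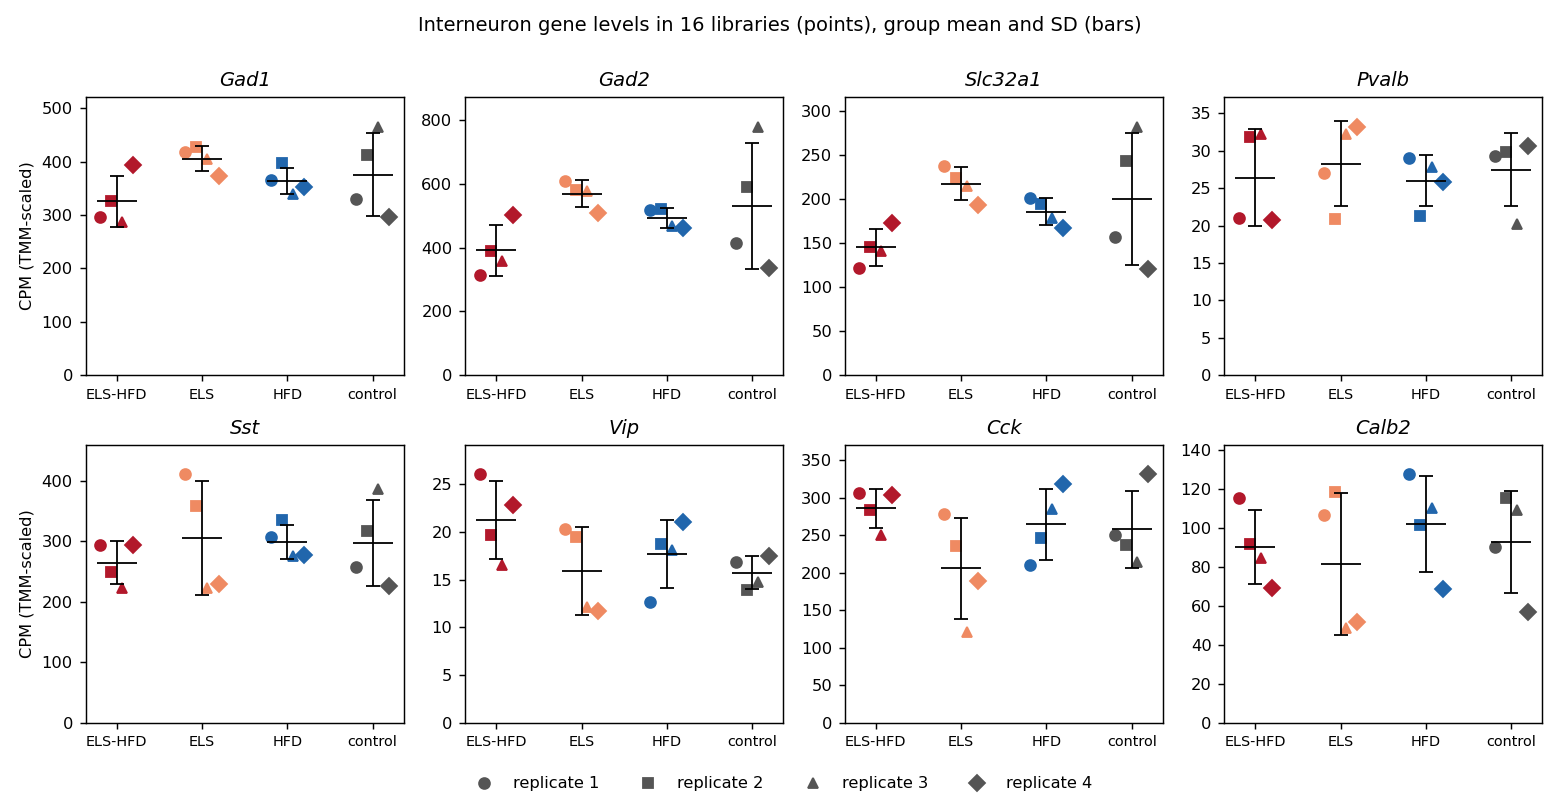
Levels of the 8 interneuron genes in CPM (vertical axes, from 0) in each of the 16 libraries, by group; points are libraries, with a shape per replicate number, and bars are the group mean and SD (n = 4). For Slc32a1 and Gad2 the 4 ELS-HFD libraries lie below the 4 ELS libraries, while the controls spread over both.

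Slc32a1, the vesicular GABA transporter, had 121.1, 145, 141 and 172 CPM in ELS-HFD libraries, 238, 224, 214 and 193 CPM in ELS libraries, 201, 194, 179 and 167 CPM in HFD libraries and 156.8, 243, 282 and 120.2 CPM in controls. All 4 ELS-HFD libraries lay below all 4 ELS libraries, and the controls held both the lowest and the highest of the 16 values. The mean was 145 ± 21.1 CPM in ELS-HFD and 217 ± 18.7 CPM in ELS, against 200.5 ± 74.9 CPM in control (SD, n = 4 each). The control group's SD was 37.3% of its mean, and that of the HFD group 8.21%.

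Gad2, the terminal GABA-synthesising enzyme, showed a similar order of libraries, with 315, 391, 359 and 502 CPM in ELS-HFD, 609.7, 581, 578 and 508 CPM in ELS, 518, 523, 468 and 462 CPM in HFD and 414, 591, 779 and 336 CPM in control. The ELS-HFD and ELS groups again did not overlap, and every other pair of groups did. Gad1, the gene for GAD67, ranged least of the 3. It had 297, 327, 286 and 393 CPM in ELS-HFD, 418, 428, 405 and 372 CPM in ELS, 366, 397, 339.8 and 352 CPM in HFD and 330.5, 412, 465 and 295 CPM in control. One ELS-HFD library, replicate 4, lay above the lowest ELS library, so those groups overlapped. For all 3 genes the highest value of the series was that of control 3.

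Sst, the gene for somatostatin, had 293, 249, 222 and 294 CPM in ELS-HFD, 411, 359, 223 and 229 CPM in ELS, 308, 335, 276 and 277 CPM in HFD and 257, 317, 387 and 225 CPM in control. The ELS group split into a high pair, ELS 1 and ELS 2, and a low pair, ELS 3 and ELS 4, and all groups overlapped. Vip, the gene for vasoactive intestinal peptide, had 26.03, 19.7, 16.5 and 22.8 CPM in ELS-HFD, 20.3, 19.4, 12.1 and 11.7 CPM in ELS, 12.7, 18.7, 18.1 and 21.1 CPM in HFD and 16.8, 13.9, 14.7 and 17.5 CPM in control. Its ELS libraries divided in the same way. Cck, the gene for cholecystokinin, had 306, 284, 249.6 and 303 CPM in ELS-HFD, 278, 236, 120.5 and 188 CPM in ELS, 209, 246, 285 and 318 CPM in HFD and 251, 236, 214 and 331 CPM in control. The lowest of the 16 Cck values was that of ELS 3, and ELS 4 was next.

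Pvalb, the gene for parvalbumin, had 20.9, 31.8, 32.2 and 20.7 CPM in ELS-HFD, 27.0, 20.8, 32.2 and 33.2 CPM in ELS, 29.1, 21.3, 27.9 and 25.8 CPM in HFD and 29.3, 29.8, 20.2 and 30.7 CPM in control. Each group held both low and high libraries, so no group stood apart. Calb2, the gene for calretinin, had 115, 91.8, 84.6 and 69.2 CPM in ELS-HFD, 106.5, 119, 48.4 and 51.8 CPM in ELS, 127, 102, 110.2 and 68.4 CPM in HFD and 90.4, 115, 109 and 57.0 CPM in control. ELS 3 and ELS 4 had the lowest Calb2 values of the series.

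Raw counts were lowest for Vip, where counting error alone came to 8.25% of the smallest value. For Pvalb the lowest count was 246, and for the other 6 genes 693 or more. Within groups, the SD of log2 CPM was 0.19 for Gad1 and between 0.29 and 0.33 for 6 others, where the median tested gene had 0.18. Calb2 varied most, at 0.48, which was above 89.3% of the tested genes.

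The combination of separation and high fat diet was compared with neither exposure, using edgeR's quasi-likelihood test over all 14208 genes with Benjamini-Hochberg adjustment. None of the 8 genes passed at an adjusted p of 0.05, where 0% of all genes did, and none passed in DESeq2. Slc32a1 was lowest, with a log2 fold of -0.47 ± 0.20 (SE), and Gad2 had -0.44 ± 0.20 and Gad1 -0.21 ± 0.13. Vip had 0.44 ± 0.20 and Cck 0.15 ± 0.20. The folds of Sst, at -0.16 ± 0.20, of Pvalb, at -0.06 ± 0.18, and of Calb2, at -0.04 ± 0.29, were smaller than their errors. Slc32a1, Gad2 and Vip had unadjusted p = 0.0314, 0.0449 and 0.0420 in edgeR, each with adjusted p = 1.00. Such a p was reached by 4.43% of all genes, and no gene of the 8 had ELS-HFD and control libraries that did not overlap (1.98% of all genes). These values depended on control 3, the library highest in the GABA genes. Without it the log2 folds were -0.26 for Slc32a1, -0.19 for Gad2, -0.09 for Gad1, -0.0097 for Sst and 0.07 for Cck, while that of Vip moved by less than 1.5 times without any single library. Gad1 was at -0.13 and Sst at -0.07 without ELS-HFD 3, and Sst was at -0.27 and Cck at 0.29 without control 4. Without ELS 1, ELS 2 and ELS-HFD 1, Pvalb was at 0.034 and Calb2 at -0.19, and both also turned sign without single libraries.

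**Figure D2:**
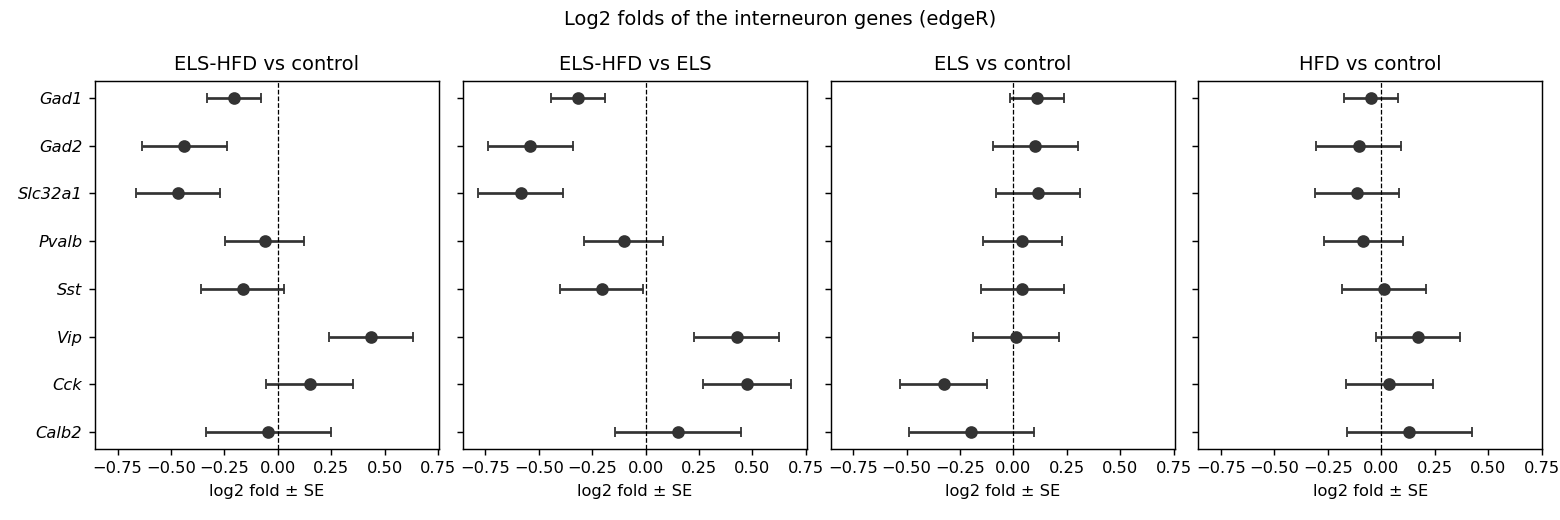
Log2 folds of the 8 genes in 4 contrasts (horizontal axes, points, with SE as bars; the dashed line marks no difference), from edgeR on 16 libraries. In the contrast of ELS-HFD with ELS, Slc32a1 at -0.58, Gad2 at -0.54 and Gad1 at -0.32 lie left of 0 and Vip at 0.43 and Cck at 0.48 right of it; no gene passed after adjustment.

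High fat diet among separated rats gave the widest differences. In ELS-HFD against ELS, Slc32a1 had a log2 fold of -0.58 ± 0.20, Gad2 -0.54 ± 0.20 and Gad1 -0.32 ± 0.13, while Cck had 0.48 ± 0.21 and Vip 0.43 ± 0.20. Sst was at -0.21 ± 0.20, Pvalb at -0.10 ± 0.18 and Calb2 at 0.15 ± 0.29. No member passed in edgeR, where 0.00704% of all genes did (1 gene), or in DESeq2. The smallest adjusted p among them was 0.678, for Slc32a1. An unadjusted p under 0.05 was found for 5 of the 8, against 6.21% of all genes. Of these, 3 were lower in ELS-HFD, as were 3.8% of all genes, and 2 were higher, as were 2.41%. The 5 are not independent, since Gad1, Gad2 and Slc32a1 moved together over libraries, as did Vip and Cck. Slc32a1 and Gad2 were the 2 genes whose groups did not overlap, which held for 2.53% of all genes, and for 1.32% with ELS-HFD lower. The authors' deposited table gave Slc32a1 a log2 fold of -0.582 in this comparison with an adjusted p of 0.385, or 0.121 in its second, corrected set of p-values, the smallest value of any of the 8 genes in that table.

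These values depended on which ELS libraries were kept. Without ELS 3 and ELS 4 the log2 folds in ELS-HFD against ELS were 0.09 for Vip and 0.15 for Cck, -0.68 for Slc32a1, -0.61 for Gad2, -0.55 for Sst, 0.13 for Pvalb and -0.33 for Calb2. Without ELS 1, ELS 2 and ELS-HFD 1 they were 0.73 for Vip, 0.86 for Cck, -0.41 for Slc32a1, -0.38 for Gad2, 0.18 for Sst, -0.21 for Pvalb and 0.71 for Calb2. Leaving out any single library kept Slc32a1 between -0.68 and -0.51 and Gad2 between -0.68 and -0.45, and Cck was at 0.29 without ELS 3. The values of Sst, Pvalb and Calb2 moved by over 1.5 times without several single libraries. Values of marker lists moved with the same contrast, as means over a list of log2 CPM relative to all libraries. The myelin list, 15 genes, ranged from -0.76 to 0.27 in ELS-HFD and from -0.18 to 1.02 in ELS. All 15 genes had negative log2 folds with an unadjusted p under 0.05 in edgeR, as had 3.8% of all genes. The central amygdala list, 11 genes tested, ranged from -0.81 to 0.13 in ELS-HFD and from 0.22 to 0.36 in ELS, and the striatal list, 15 genes, from -0.93 to 0.82 in ELS-HFD and from 0.07 to 1.26 in ELS. The excitatory neuron list, 13 genes, ranged from 0.02 to 0.35 in ELS-HFD and from -0.49 to 0.05 in ELS. Whether these cell contents account for the values of the interneuron genes was not tested.

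Averaged over both rearings, high fat diet against chow gave Slc32a1 a log2 fold of -0.35 ± 0.14, Gad2 -0.32 ± 0.14 and Gad1 -0.18 ± 0.09. Vip was at 0.30 ± 0.14 and Cck at 0.26 ± 0.15. Sst and Pvalb, at -0.10 ± 0.14 and -0.09 ± 0.13, and Calb2, at 0.14 ± 0.21, lay within their errors. None passed in edgeR or DESeq2, the smallest adjusted p in edgeR was 0.840 for Slc32a1, and 0.00704% of all genes passed. Slc32a1, Gad2 and Vip had an unadjusted p under 0.05, against 5.54% of all genes. Library codes in the labels end in N for 9 libraries and in B for 7, with no meaning given. With this letter in the fit the values were -0.23 for Slc32a1, -0.20 for Gad2, -0.12 for Gad1, 0.20 for Vip and 0.17 for Cck, and for ELS-HFD against ELS they were -0.52, -0.48, -0.28, 0.37 and 0.43. Without ELS 3 and ELS 4 the averaged diet values were 0.13 for Vip, 0.09 for Cck, -0.27 for Sst, 0.025 for Pvalb and -0.10 for Calb2. Without ELS 1, ELS 2 and ELS-HFD 1 they were 0.45 for Vip, 0.45 for Cck, 0.095 for Sst, -0.15 for Pvalb and 0.42 for Calb2. Gad2 was at -0.20 without control 3 and Cck at 0.16 without ELS 3, and Sst, Pvalb and Calb2 moved by over 1.5 times without several single libraries.

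The single exposures gave small values. In HFD against control the log2 folds of the 8 genes lay between -0.11 for Slc32a1 and 0.17 for Vip, 4 on each side of 0. With the label letter in the fit these 2 genes were at 0.064 and 0.021, and Vip was at 0.08 without HFD 4 and 0.30 without HFD 1. In ELS against control they lay between -0.33 ± 0.21 for Cck and 0.12 for Slc32a1. Control 3 and control 4, the extremes of Slc32a1, set its sign: its fold was 0.10 in HFD without control 3, and -0.055 in ELS without control 4. Cck in ELS was at 0.0095 without ELS 3 and ELS 4 and at -0.74 without ELS 1, ELS 2 and ELS-HFD 1, and Slc32a1 was at 0.22 and 0.023 in these settings. Of single libraries, ELS 3, control 4 and ELS 1 moved Cck most, to -0.14, -0.18 and -0.51. None of the 8 passed in either contrast in edgeR or DESeq2, where 0% of all genes passed in edgeR, and none had an unadjusted p under 0.05, which 1.84% of all genes had in HFD and 3.32% in ELS. Separation among rats on the high fat diet, ELS-HFD against HFD, gave -0.36 ± 0.20 for Slc32a1 at the low end and 0.26 ± 0.20 for Vip at the high end, but Vip was at 0.14 without HFD 1 and 0.15 without ELS-HFD 1, as it was without ELS 1, ELS 2 and ELS-HFD 1. Averaged over both diets, separation gave values between -0.19 ± 0.21 for Calb2 and 0.14 ± 0.14 for Vip. These were at 0.060 and 0.31 without ELS 3 and ELS 4, and at -0.60 and -0.12 without ELS 1, ELS 2 and ELS-HFD 1, and both moved by over 1.5 times without several single libraries. In both contrasts no member and 0% of all genes passed in edgeR, no member passed in DESeq2, and no member had an unadjusted p under 0.05 (1.77% and 2.6% of all genes).

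The separation-by-diet interaction asks whether diet acted differently in separated rats. It was most negative for Slc32a1, at -0.47 ± 0.28, and most positive for Cck, at 0.44 ± 0.29, on the log2 scale. Without ELS 3 and ELS 4 the value of Cck was 0.105, without ELS 1, ELS 2 and ELS-HFD 1 it was 0.82, and without ELS 3 alone 0.25. The value of Slc32a1 was -0.30 in the second of these settings, and likewise without control 4. Neither passed (adjusted p = 1.00 each in edgeR), no other of the 8 genes did in edgeR or DESeq2, 0% of all genes passed in edgeR, and none of the 8 had an unadjusted p under 0.05 (2.23% of all genes). A difference in the diet effect between rearings was thus not detected beyond the spread between these libraries.

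**Figure D3:**
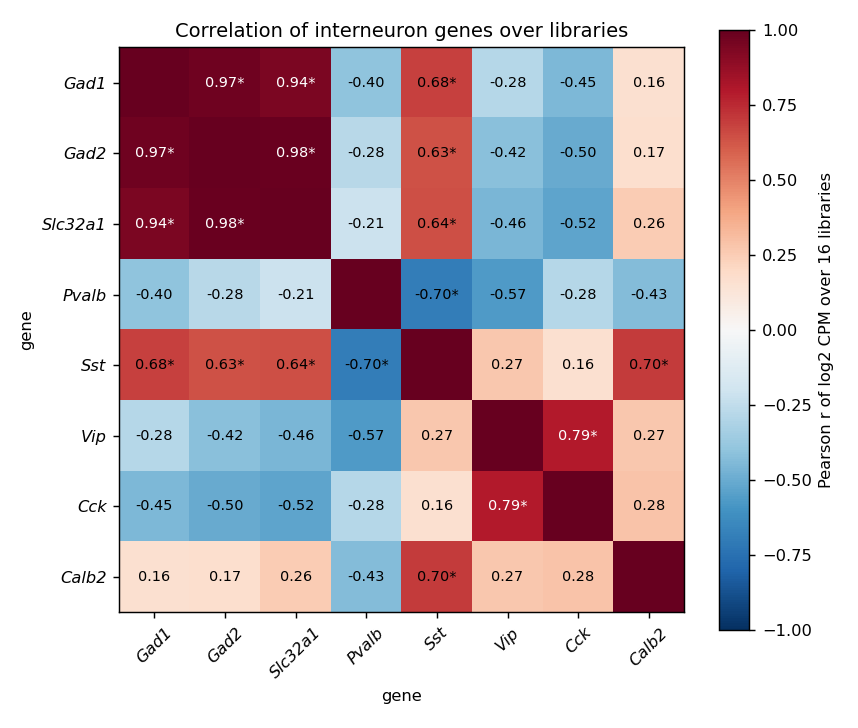
Pearson correlation of log2 CPM between the 8 genes over 16 libraries, as colours and numbers; an asterisk marks a permutation p that passed 0.05 after adjustment over the 28 pairs. Gad1, Gad2 and Slc32a1 form a block with r from 0.94 to 0.98, Sst relates to this block and to Calb2, and Vip pairs with Cck.

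The clearest pattern was shared variation between libraries, whatever their group. Over the 16 libraries, 9 of the 28 pairs of genes had a correlation of log2 CPM that passed a two-sided permutation test after Benjamini-Hochberg adjustment over the 28 pairs. Gad2 and Slc32a1 had r = 0.98 and rho = 0.99, Gad1 and Gad2 r = 0.97 and rho = 0.96, and Gad1 and Slc32a1 r = 0.94 and rho = 0.94. The permutation p was 1e-05 in all 3 pairs, the smallest that the resamples can give, with an adjusted p of 9.3e-05 for both measures. Without the 2 libraries farthest from the median of the first gene, r was 0.98, 0.97 and 0.94. After subtraction of group means the 3 pairs had r = 0.98, 0.96 and 0.92, and within the N and B libraries r was 0.93 or higher in each pair. The libraries thus differed in a common level of the 3 GABA genes, by 1.62-fold for Gad1, 2.48-fold for Gad2 and 2.35-fold for Slc32a1 between the lowest and the highest library.

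Vip and Cck formed a second pair, with r = 0.79 (p = 6e-05, adjusted p = 0.00042) and rho = 0.78 (p = 0.00066, adjusted p = 0.0037) by permutation. Their correlation was 0.74 without the 2 libraries farthest in Vip, 0.80 after subtraction of group means, 0.82 within the N libraries and 0.33 within the B libraries, where it did not pass. Neither gene passed with Gad1, Gad2 or Slc32a1 by Pearson correlation, where r lay between -0.28 and -0.52. By rank, Cck passed with Gad2 (rho = -0.64, permutation p = 0.00895, adjusted p = 0.0228) and with Slc32a1 (rho = -0.68, permutation p = 0.00521, adjusted p = 0.0155), and Vip with Pvalb (rho = -0.59, permutation p = 0.019, adjusted p = 0.0444). Libraries high in the transporter gene thus tended to rank low in cholecystokinin transcripts, a relation that passed by rank alone. Pearson r of Slc32a1 and Cck was -0.52 over all libraries and -0.33 with group means subtracted. It was -0.32 within the N and -0.68 within the B libraries, and none of these values passed. Without the 2 libraries farthest in Slc32a1 it was -0.38.

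Sst was related to the GABA genes, to Calb2 and to Pvalb, and its relations with Vip and Cck did not pass (r = 0.27 and 0.16). It had r = 0.68 with Gad1 (p = 0.00411, adjusted p = 0.0164 by permutation), 0.63 with Gad2 (p = 0.00889, adjusted p = 0.0277 by permutation) and 0.64 with Slc32a1 (p = 0.0077, adjusted p = 0.027 by permutation). The rank correlations were 0.73, 0.68 and 0.67, with adjusted p = 0.00966, 0.0155 and 0.0155 by permutation. Without the 2 libraries farthest in the GABA gene, r was 0.54, 0.67 and 0.70. Without control 3 none of the 3 relations passed (r = 0.61, 0.54 and 0.56), and those with Gad2 and Slc32a1 also did not pass without control 4, ELS 1 or ELS-HFD 3. Within the N libraries (r from 0.63 to 0.64) and the B libraries (0.74 to 0.88) none passed. With Calb2, Sst had r = 0.70 (p = 0.00275, adjusted p = 0.0154) and rho = 0.68 (adjusted p = 0.0155) by permutation, and r = 0.74 without the 2 libraries farthest in Sst. Pvalb ran opposite to Sst, with r = -0.70 (p = 0.00354, adjusted p = 0.0164) and rho = -0.77 (adjusted p = 0.0037) by permutation, and r = -0.67 without the 2 libraries farthest in Pvalb. Within the letters, r of Pvalb and Sst was -0.64 in the N and -0.92 in the B libraries, of which the second passed, and that of Sst and Calb2 was 0.73 and 0.70, neither of which passed. With group means subtracted, r of Pvalb and Sst was -0.75 and passed, while that of Sst and Calb2 was 0.77 and did not pass. Over the 16 libraries, those high in somatostatin transcripts thus tended to be high in calretinin and low in parvalbumin transcripts.

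The marker lists of other cells moved with some of these genes. Among 32 relations of the 8 genes with 4 lists, 14 passed the permutation test adjusted over the 32. The 4 lists were chosen out of 12 with earlier results of these data known, and the adjustment does not cover that choice. The central amygdala list had r = 0.92 with Gad2, 0.91 with Slc32a1 and 0.89 with Gad1, each with p = 1e-05 and adjusted p = 8e-05 by permutation. The rank correlations were 0.89, 0.88 and 0.88, r without the 2 libraries farthest in the list was 0.88, 0.86 and 0.87, and with group means subtracted it was 0.90, 0.89 and 0.86. Within the N libraries the 3 values were 0.84, 0.82 and 0.80, and within the B libraries 0.98, 0.98 and 0.90, of which the last did not pass. The striatal list had r = 0.66 with Gad2, 0.60 with Slc32a1 and 0.65 with Gad1, with adjusted p = 0.019, 0.0342 and 0.019 by permutation. By rank, Gad1 passed (rho = 0.64, adjusted p = 0.0334 by permutation). Gad2 and Slc32a1 did not pass by rank (rho = 0.57 and 0.52, adjusted p = 0.0598 and 0.0902 by permutation). The 3 Pearson relations did not pass after subtraction of group means, within either letter or without ELS-HFD 1. They also did not pass without ELS 1, ELS 2 and ELS-HFD 1 together. None of the lists contains any of the 8 genes.

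Vip and Cck were related to other lists. The excitatory neuron list had r = 0.84 with Cck (rho = 0.86, p = 1e-05, adjusted p = 8e-05 by permutation) and 0.77 with Vip (rho = 0.85, p = 0.0005, adjusted p = 0.00267 by permutation). Without the 2 libraries farthest in the list these were 0.77 and 0.73, within the N libraries 0.82 and 0.83, and within the B libraries 0.73 and 0.30, neither of which passed. The myelin list had r = -0.85 with Vip (rho = -0.88, p = 2e-05, adjusted p = 0.000128 by permutation), -0.77 with Cck and -0.64 with Calb2, and 0.60 with Pvalb. For these last 3 the adjusted p was 0.00329, 0.019 and 0.0315 by permutation, and the relation with Pvalb had r = 0.48 without the 2 farthest libraries and did not pass without ELS 3, ELS 4, ELS-HFD 1 or ELS-HFD 4. The relation with Vip was -0.76 without the 2 libraries farthest in the list, ELS 3 and ELS 4 on this list, and -0.80 and -0.93 within the N and B libraries. Those of Cck and Calb2 came to -0.39 and -0.17 without these 2 libraries, and thus rested on them. Within the N and B libraries, r of the myelin list with Cck was -0.91 and -0.15, of which the first passed. With Calb2 it was -0.68 and -0.59, neither of which passed. Cck also had r = -0.66 with the striatal list (-0.42 without the 2 farthest libraries) and -0.58 with the central amygdala list (-0.47). The first did not pass without ELS 3, and the second, with an adjusted p of 0.0455 by permutation, did not pass without any of several single libraries. By rank, Cck passed with the central amygdala list (rho = -0.79, adjusted p = 0.00229 by permutation). It did not pass by rank with the striatal list (rho = -0.44, adjusted p = 0.169 by permutation). With the myelin list, Calb2 did not pass by rank (rho = -0.36, adjusted p = 0.173 by permutation). Cck and Pvalb passed there narrowly (rho = -0.61 and 0.61, adjusted p = 0.0472 and 0.0490 by permutation). With group means subtracted, the relations of Vip with the myelin list (r = -0.84) and of Cck and Vip with the excitatory list (0.86 and 0.72) passed. The other 5 did not: the myelin list had r = -0.67 with Cck, -0.66 with Calb2 and 0.65 with Pvalb, and Cck had -0.52 with the striatal and -0.44 with the central amygdala list. A gene's link to a list describes these libraries, and the part of tissue content in it was not tested.

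**Figure D4:**
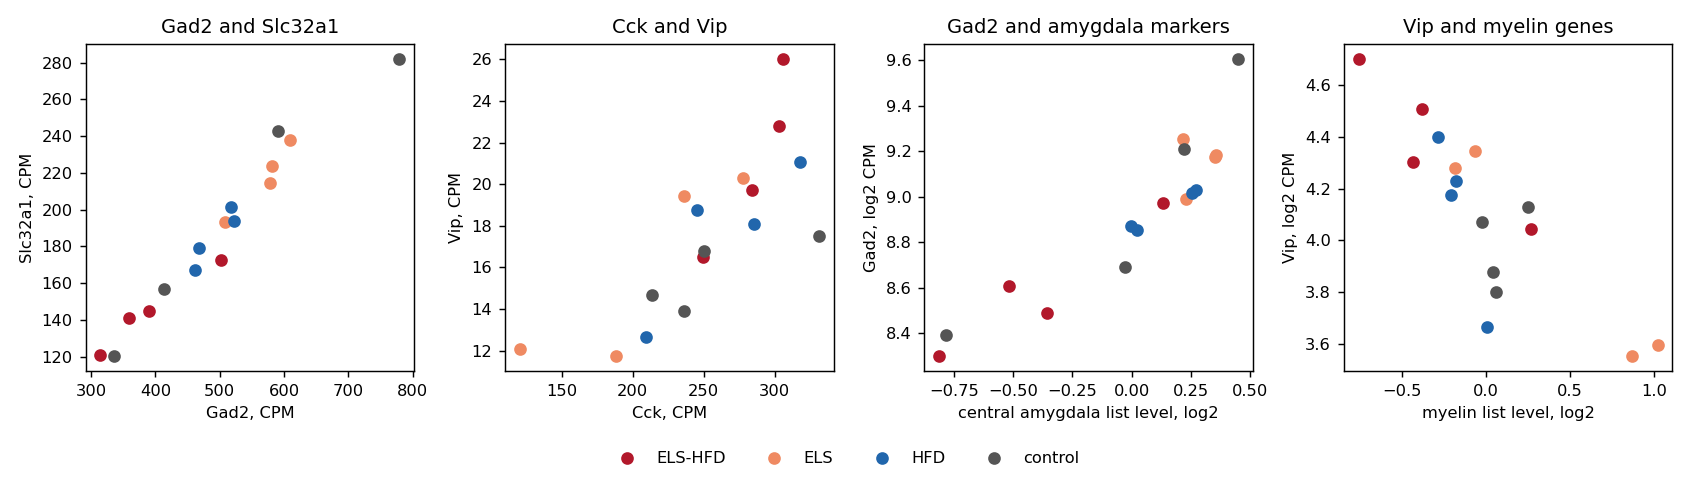
Relations over the 16 libraries, 1 point each, coloured by group. From left, Slc32a1 against Gad2 and Vip against Cck (CPM), then log2 CPM of Gad2 against the level of the central amygdala list and of Vip against that of the myelin list; Gad2 and Slc32a1 lie near a line in every group (r = 0.98), and Vip is lowest in the 2 ELS libraries with the most myelin transcripts.

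The genes most alike to each of the 8 were sought among all tested genes by Pearson r of log2 CPM over the 16 libraries, as a description. Gad1 was followed by Gad2, Slc32a1 and Vat1 (r = 0.92). Gad2 and Slc32a1 had each other, with Gabre, the epsilon subunit of GABA-A receptors, at r = 0.95 and 0.96. Tac3, the neurokinin B precursor gene, was at 0.94 with Slc32a1. Gabre was low, at 0.824 to 10.1 CPM over the libraries. The nearest to Sst were Slc8a3, a sodium-calcium exchanger (0.95), Olfm2 and Uchl1 (0.94 each). Vip was nearest to Pde2a, a phosphodiesterase (0.95), Rasal1 (0.95) and Olfm1 (0.94). Cck was nearest to Slc17a7, the vesicular glutamate transporter of cortical-type neurons (0.92), to Icam5, an adhesion molecule of telencephalic neurons (0.92), and to Cacng8, an AMPA receptor auxiliary subunit (0.91). Pvalb was nearest to Laptm4b, Esrra and Bspry (0.90, 0.89 and 0.89), and Calb2 to Micu2, Tppp3 and Rit2 (0.92, 0.91 and 0.91).

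Related genes of inhibitory cells gave no call in any contrast in edgeR. The 10 genes for GABA uptake, breakdown and inhibitory synapses, among them the scaffold Gphn, had a median log2 fold of -0.01 in ELS-HFD against control, as had all tested genes, with 5 on each side of 0. Aldh5a1, which completes GABA breakdown, was at -0.11 ± 0.08, and Nlgn2, an adhesion protein of inhibitory synapses, at 0.12 ± 0.09. Transcription factors of interneuron lineages, 16 tested of 17 listed, had a median of -0.13, with 10 negative. Of these, 1 was lower at an unadjusted p under 0.05 in edgeR (4.43% of all genes in either direction). In ELS-HFD against ELS the median of these factors was -0.04, and 5 of the 16 were lower at such a p, where 3.8% of all genes were. In ELS-HFD against control, Sp9 was at -0.47 ± 0.20, with 11.7 ± 2.97 CPM in ELS-HFD and 16.2 ± 4.83 CPM in control, Nkx2-1 at -0.55 ± 0.32 and Lhx6, which directs the somatostatin and parvalbumin lineages, at -0.27 ± 0.20.

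Other interneuron class markers, 14 tested of 17, had a median log2 fold of -0.03 in ELS-HFD against control, with 8 negative. At an unadjusted p under 0.05 in edgeR, 2 were lower there (4.43% of all genes in either direction). In ELS-HFD against ELS, 2 were lower at such a p (3.8% of all genes were lower). In ELS-HFD against HFD, 3 were lower and 1 higher (1.77% of all genes in either direction). In ELS-HFD against control, Crh, the corticotropin-releasing hormone gene, was at -0.93 ± 0.40, with 3.18 ± 1.56 CPM in ELS-HFD and 6.02 ± 3.03 CPM in control. The central amygdala list had a median log2 fold of -0.39 in the same contrast, with 7 genes negative and 4 positive. Whether the value of Crh comes from interneurons or from other cells was not tested. Chodl, a marker of long-range somatostatin cells, was at -0.68 ± 0.32, and Calb1, the gene for calbindin, at 0.40 ± 0.19. The 11 genes listed for fast-spiking cells, such as the potassium channel gene Kcnc1, had a median of -0.02. The 3 with the smallest p were Cox6a2 at -0.32 ± 0.26, the opioid receptor Oprm1 at -0.20 ± 0.18 and Tac1 at -0.32 ± 0.35. Cox6a2 was low, at 0.76 ± 0.16 CPM in ELS-HFD and 0.95 ± 0.17 CPM in control. In bulk tissue these values cannot be assigned to fast-spiking cells alone. Receptors of the 3 peptides and the related PACAP, 8 tested of 9, had a median of 0.04. The cholecystokinin receptor Cckbr was at 0.44 ± 0.20, with 27.1 ± 5.69 CPM in ELS-HFD and 20.02 ± 3.08 CPM in control, and the somatostatin receptor Sstr1 at 0.39 ± 0.21. Cckar, at -0.59 ± 0.51, averaged 0.391 ± 0.301 CPM in ELS-HFD and 0.588 ± 0.137 CPM in control. Each of the genes named here had adjusted p = 1.00 in edgeR.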

How the data were processed

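The authors deposited raw counts per Ensembl gene, per the file headers, and a normalized signal that equals each deposited count divided by 1 size factor per library (largest relative deviation 4e-05 for genes with at least 200 counts). The authors' deposited table also holds log2 fold changes and p-values. Libraries were made from 15 ng of RNA with barcoded oligo-dT primers and linear amplification, per the labels' protocols. Tools listed in the submitters' processing notes, without roles, are STAR, HTSeq, cutadapt, DESeq2 and Picard, with Rnor_6.0 as the build. The sources used here do not say whether counting used strand or molecular identifiers.

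Counts were tested with edgeR 4.0.16 in R 4.3.3 (TMM, filterByExpr with minimum count 10 and total 15, a mean per group, all 16 libraries), and with DESeq2 1.42.0 as an alternative. The SE was obtained as the size of the log2 fold over the root of its F statistic. Correlations used log2 CPM with a prior count of 2 and 100000 permutations, or all of them for fewer than 10 libraries; with group means subtracted, permutations stayed within groups. Scripts were tested on simulated data. Depth was 11438086 to 23629824 counts per library. Start windows came from RefSeq (GRCr8).

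The 8 genes, marker lists, relations and alternatives were chosen with earlier results of these data known. Named genes were the 8, the 3 most alike to each and, from each related list, the 3 with the smallest p in ELS-HFD against control. A gene that this rule names is not reported here. Log2 folds are given for all 8 genes in 3 contrasts and for the lowest and highest in the others. The authors' call thresholds were not used.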

Additional observations from a re-analysis of the deposited data

Results flagged for a closer look

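Pvalb in control 3 lay far from the other controls, at 20.2 CPM against 29.3 to 30.7 CPM in the other 3 control libraries. The same library had the highest Gad1, Gad2 and Slc32a1 values of the series. Of 32 sets of 4 libraries looked at, this was the 1 that was flagged. Chance flags about 1 set in 20, so 1 flag among 32 sets is no more than chance would give.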

How the results depend on the processing

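None of the 8 genes passed in any of the 8 contrasts under any alternative run. Of 804 values of their log2 folds under alternatives, 783 kept their sign. Many could hardly do otherwise, since each group had its own mean. Leaving out a library of a group outside the contrast left the fold nearly unchanged. Without ELS 3 and ELS 4 the sign turned for Pvalb (0.13) and Calb2 (-0.33) in ELS-HFD against ELS, for Pvalb (0.025) and Calb2 (-0.10) in the averaged diet contrast, for Cck in ELS against control (0.0095) and for Calb2 in the averaged separation contrast (0.060). Without ELS 1, ELS 2 and ELS-HFD 1 it turned for Sst in ELS-HFD against ELS (0.18) and in the averaged diet contrast (0.10), for Pvalb in ELS-HFD against control (0.034) and for Vip in the averaged separation contrast (-0.12). With the label letter in the fit, Slc32a1 in HFD against control was at 0.064. Leaving out 1 library, the ranges that crossed 0 were -0.29 to 0.10 for Slc32a1 in HFD and -0.055 to 0.33 in ELS, each against control, -0.18 to 0.041 for Pvalb and -0.21 to 0.081 for Calb2 in ELS-HFD against control, -0.032 to 0.39 for Calb2 in ELS-HFD against ELS and -0.16 to 0.0031 for Sst in the averaged diet contrast. The cause was not tested.

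The number of all genes called moved from 0 to 1 in HFD against control and from 0 to 2 in ELS-HFD against control with DESeq2, and from 1 to 5 in ELS-HFD against ELS and from 1 to 2 in the averaged diet contrast. Without ELS 1, ELS 2 and ELS-HFD 1 it was 23 in ELS against control, 116 in ELS-HFD against ELS and 102 in the averaged diet contrast. In ELS-HFD against ELS it was 0 without ELS 3 and ELS 4 and with the 2 groups alone. Leaving out 1 library it lay between 0 and 1 in ELS-HFD against control and in ELS-HFD against ELS. Of 24 same-numbered pairs of libraries, 8 had correlated deviations above 0.1 (r from -0.48 to 0.65). Pairs with different numbers were not looked at, so whether replicate numbers pair the libraries cannot be told. With the replicate number as a block, 0 members passed in any contrast and Slc32a1 was at -0.58 in ELS-HFD against ELS. Of the 28 pairs of genes, 9 passed, and 4 did within the N and 4 within the B libraries, where fewer libraries entered. Of 32 relations with lists, 14 passed, 6 with group means subtracted, 7 within N, 3 within B, 7 without ELS 1, ELS 2 and ELS-HFD 1, and 9 to 14 leaving out 1 library. Depth limits Vip and Pvalb most, the 2 genes with the lowest counts.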
